A study of Homo sapiens with 3 samples.

Results

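The genes described here are the epidermal growth factor (EGF) receptor family, its ligands and 1 inhibitor, 10 genes chosen by name out of the 60506 genes listed on chromosomes. They are the receptors EGFR, ERBB2 and ERBB3, the ligands TGFA, AREG, EREG, HBEGF, BTC and EPGN, and the feedback inhibitor ERRFI1. Together they have 90 of 226669 listed transcripts, and all 10 passed the filter of a mean summed FPKM of at least 1 that left 13923 genes. HaCaT cells, an immortalized human keratinocyte line, were transfected by the lipid reagent RNAiMAX with 10 nM of SRSF5 siRNA No.1 (siRNA 1), of SRSF5 siRNA No.2 (siRNA 2) or of a control siRNA. SRSF5 belongs to the SR proteins, which help to choose splice sites. Each transfection gave 1 RNA library, so there were 2 knockdown libraries, not made with the same siRNA, and the control had no replicate. Nothing says that a transfection was repeated in a separate culture, and no source used here gives the time of harvest.

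The EGF receptor and its relatives are receptor tyrosine kinases that pair on binding a ligand and signal through RAS and ERK and through PI3 kinase. Their ligands are made as membrane proteins and released by cell surface proteases. In epidermis EGFR drives keratinocyte growth and migration, and keratinocytes make several of its ligands themselves, so that the pathway largely feeds itself. ERRFI1, also called MIG6, binds the kinase domain of the receptors and restrains them.

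Values are FPKM, read fragments scaled by transcript length and library size, as the authors deposited them per transcript. A gene is given by the sum over its transcripts and by its highest transcript, the one with the highest mean over the libraries. Isoforms share reads, so sums grow with the number of transcripts and levels are compared between genes only by single transcripts. Ratios are log2 of summed FPKM + 1, an siRNA library over the control, which understates differences of low genes. Counting errors come from the transcript of each gene with the most read equivalents (100 bases of overlap) and cover counting alone, since copies made by PCR are not separate molecules. In bulk RNA, fewer cells of a type and less RNA per cell cannot be told apart.

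The libraries held 17706018, 15862004 and 18321703 read equivalents in the largest transcripts of all genes, for siRNA 1, siRNA 2 and the control. SRSF5 itself had a summed FPKM of 44.3 with siRNA 1 and 18.7 with siRNA 2, against 94.1 in the control, so it stood lower in both. Its log2 ratios were -1.07 and -2.27 (mean -1.67 ± 0.85, SD, n = 2), and limma gave an adjusted p of 1.00. Of the keratinocyte markers 10 of 10 passed the filter, with a summed level of 6009, 9880 and 4738 FPKM with siRNA 1, with siRNA 2 and in the control. Of the fibroblast, melanocyte, endothelial and leukocyte markers 1 each passed (COL1A1, MITF, CDH5 and CD68), and their lists summed to 1.91 to 29.2 FPKM, with TYR and MLANA of melanocytes at 0. By gene, KRT14 (1040, 3164 and 714 FPKM, in the same order), KRT17 (723, 1312 and 263 FPKM), CDH1, KRT5, PERP and TP63 were above the control in both siRNA libraries. KRT15 was below it in both (111, 276 and 319 FPKM), and ITGB4, SFN and DSP lay above it in 1 and below it in the other. Mitochondrial transcripts took 14.8%, 10.0% and 13.7% of the base overlaps. The part of these differences in the results below was not tested.

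EGFR was by far the most abundant member. EGFR-201, its longest coding transcript (9905 bases), stood at 53.2 FPKM with siRNA 1 and 63.7 with siRNA 2, against 41.5 in the control. In the control TGFA followed at 5.38 (TGFA-201), ERBB3 at 5.34 (ERBB3-220), HBEGF at 4.80 (HBEGF-203), ERBB2 at 2.83 (ERBB2-213), AREG at 2.70 (AREG-202), ERRFI1 at 2.27 (ERRFI1-201), BTC at 1.15 (BTC-202), EREG at 0.487 (EREG-201) and EPGN at 0.191 (EPGN-208). On this measure TGFA, ERBB3 and HBEGF, and also ERBB2 and AREG, lay so close that 1 control library cannot order them. With siRNA 2 AREG had 5.03, HBEGF 4.58 and TGFA 2.47, and AREG and HBEGF were likewise too close to order. The order depends on the transcript: ERBB3-220 and HBEGF-203 are listed as retained introns of 291 and 565 bases, and ERBB2-213 has 529 bases. By the longest coding transcript the control had TGFA at 5.38, ERBB3 at 3.21 and HBEGF at 3.01. ERRFI1 followed at 2.27, AREG at 2.22 and ERBB2 at 1.70.

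**Figure D1:**
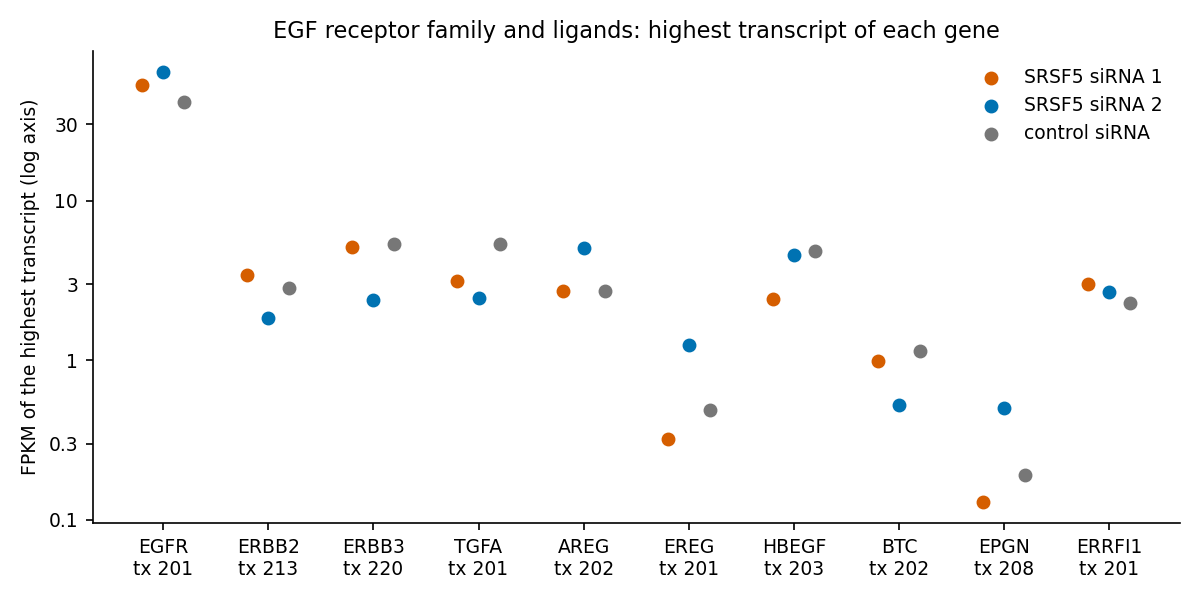
FPKM of the highest transcript (tx, with its number) of each member, on a log axis, in the libraries of siRNA 1, siRNA 2 and the control, 1 point per library. EGFR stands at 41.5 to 63.7 FPKM, and EPGN and EREG are the lowest members in the control.

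A member counts as past 1.5-fold in both where the 2 siRNA libraries lie that far from the control on the same side. TGFA was the 1 such member of 10, on the lower side, and 0 were on the higher side, where 1.47% and 3.19% of all tested genes were (4.66% in either direction). With siRNA 1 alone 2 members passed that fold, both lower, against 11.7% of all genes. With siRNA 2 alone 4 were higher and 2 lower, or 6 of 10 against 23.3% of all genes. Scaling the libraries to a common median, or leaving out mitochondrial transcripts, made this 4 higher and 4 lower, adding ERBB2 and BTC. The members' share with siRNA 2 was above that of all genes, but it was not tested and rests on 1 library. The median log2 ratio of the members was -0.07 with siRNA 1 and 0.12 with siRNA 2, against -0.02 and 0.05 over all tested genes. Between the siRNAs 4 members were at least 1.5-fold higher and 2 lower with siRNA 2 than with siRNA 1, against 24.3% of all genes in either direction. In limma over all 13923 genes, whose spread is the difference between the siRNAs, 0 members and 0 genes (0%) passed 0.05 after Benjamini-Hochberg adjustment. At an unadjusted p below 0.05 it gave 416 genes (2.99%) and 0 members. Robust limma called 3 genes and 0 members.

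**Figure D2:**
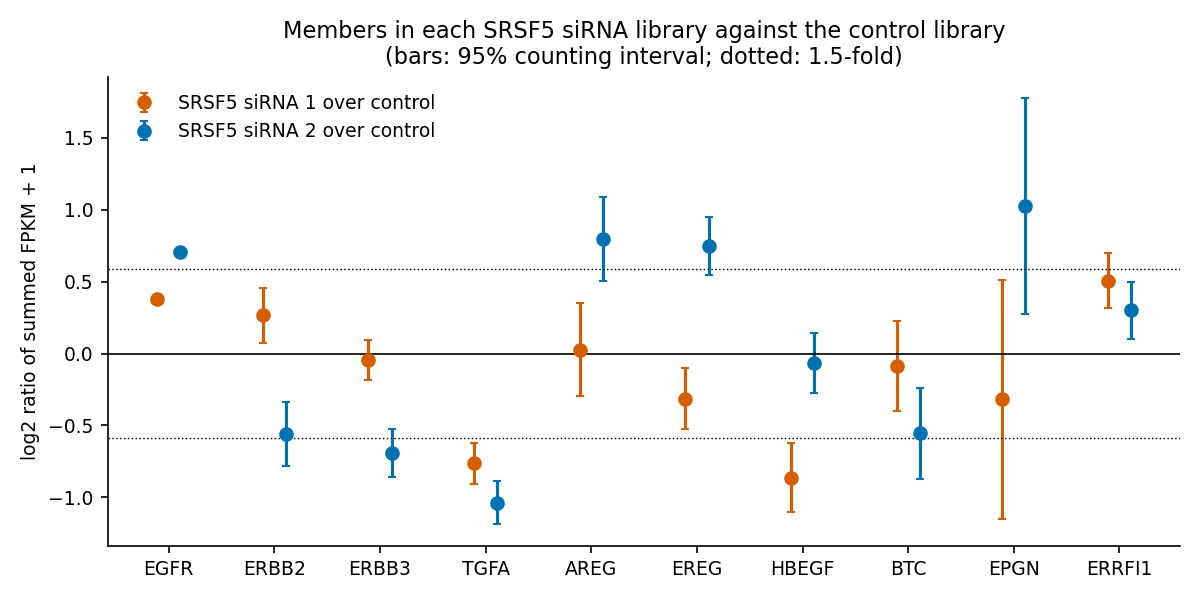
Log2 ratio of summed FPKM + 1 for each member, siRNA 1 and siRNA 2 over the control, with 95% counting intervals as bars and 1.5-fold as dotted lines. TGFA alone lies past the same dotted line with both siRNAs, and 6 members lie at least 1.5-fold apart between them, EPGN, EREG, AREG and HBEGF higher and ERBB2 and ERBB3 lower with siRNA 2.

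Among the receptors, EGFR stood above the control with both siRNAs. EGFR (ENSG00000146648.18, chromosome 7, 55019017 to 55211628, plus strand, GRCh38) summed to 220 FPKM with siRNA 1 and 276 with siRNA 2, against 169 in the control. The order siRNA 2, siRNA 1, control held in each of its 11 listed transcripts, which share reads. As a share of the control they took 128% to 137% for siRNA 1 and 153% to 184% for siRNA 2. Its log2 ratios were 0.38 and 0.71 (mean 0.54 ± 0.23, SD, n = 2), so it was past 1.5-fold with siRNA 2 only. EGFR-201 held 22270, 26019 and 18331 read equivalents, which leaves a counting error of 0.01 on each ratio, and the limma adjusted p was 1.00. EGFR-201 was the transcript nearest to the control with siRNA 2, at 153%, and the transcripts that end early in the gene were farther from it. EGFR-208 and EGFR-209, noncoding transcripts of the first exons, stood at 177% and 184%, and EGFR-204, a short coding one, at 174%.

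ERBB2, the receptor that has no ligand of its own and pairs with the others, differed between the siRNAs. ERBB2 (ENSG00000141736.13, chromosome 17, 39687914 to 39730426, plus strand) summed to 49.0 FPKM with siRNA 1 and 27.2 with siRNA 2, against 40.6 in the control. It was thus above the control with siRNA 1 and below it with siRNA 2. The log2 ratios were 0.27 (counting error 0.10) and -0.56 (0.11), the second just short of 1.5-fold and past it under median scaling (-0.61) or without mitochondrial transcripts (-0.62). With siRNA 2, the gene was lower than with siRNA 1 by a log2 difference of -0.83 (95% counting interval -1.04 to -0.61). Its 22 transcripts share reads and are not separate observations. Of them 21 were above the control with siRNA 1 and 22 of 22 were below it with siRNA 2, at 46.8% to 77.3%. ERBB2 overlaps MIEN1 on the opposite strand by up to 404 bases, and the counting used strand.

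ERBB3 binds neuregulins and has little kinase activity of its own, so it signals through its partner. ERBB3 (ENSG00000065361.15, chromosome 12, 56076799 to 56103505, plus strand) summed to 67.8 FPKM with siRNA 1 and 43.0 with siRNA 2, against 70.1 in the control. It was close to the control with siRNA 1, at a log2 ratio of -0.05 (counting error 0.07), and lower with siRNA 2, at -0.69 (0.09). The full-length transcript ERBB3-201, of 28 exons, had 3.20, 1.68 and 3.21 FPKM with siRNA 1, with siRNA 2 and in the control, from 802, 411 and 846 read equivalents.

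The sum hides a split within the gene. The 11 ERBB3 transcripts that start at or after base 56086519 stood at 34.8% to 68.2% of the control with siRNA 2. The 5 transcripts that span both parts were at 52.5% to 66.1%. The 5 short ones that end by base 56086672, ERBB3-202 aside, were at 96.0% to 102%, with counting errors of 0.25 to 0.36 on the log2 scale. ERBB3-202 had 3.22 FPKM with siRNA 2, against 1.81 in the control, or 178% of it. In the siRNA 1 library, at 1.48 FPKM, it was at 81.8%, and the other transcripts lay between 84.0% and 110%. So the transcripts of the first exons lay near the control with siRNA 2 while the rest of the gene stood lower, which was not seen with siRNA 1, where the short ones were at 81.8% to 93.8% and the 11 late ones at 88.6% to 110%. ERBB3-223, a noncoding transcript, held 1 read equivalent with siRNA 2 and was listed at 0 in the others. ERBB3 also overlaps AC034102.3 on the same strand, by up to 31 bases. That gene summed to 55.7 FPKM with siRNA 1 and 62.8 with siRNA 2, against 63.1 in the control. Whether shared reads have a part in the split was not tested.

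ERBB3-202 is a coding transcript of 3 exons whose last one runs 442 bases past the place where ERBB3-201 splices. The stretch (chromosome 12, 56085182 to 56085623) is exon in 1 of the 23 listed transcripts. The 30 bases around the place (chr12:56085167-56085196, plus strand, GRCh38, from the GENCODE 29 transcript) are shown because ERBB3-202 alone keeps the bases past it. ERBB3-205 ends later, at base 56086672, and stood at 97.9% of the control with siRNA 2. These values therefore do not place the split at this site. Capitals mark the bases that ERBB3-202 keeps and ERBB3-201 splices out.
ERBB3 exon end: tgactcagctcaccgGTCAGTTCCCGATGG

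The stretch opens with the GT of a splice donor, which the spliced transcripts leave out. ERBB3-202 held 136 read equivalents with siRNA 2, 64.3 with siRNA 1 and 82.9 in the control. On the scale of single transcripts it stood at a log2 ratio of 0.83 (counting error 0.20) with siRNA 2, where ERBB3-201 stood at -0.93 (0.09). The difference of 1.76 was set, after these values were seen, beside 3964 genes with a transcript ending in the first 50% of the gene and a largest transcript that reaches its end. At least 1.5-fold more in the early transcript than in the largest one, relative to the control, was found in 2.04% of them with siRNA 2 and 0.782% with siRNA 1. A difference as large as that of ERBB3 was held by 3 genes, ERBB3 included, with siRNA 2, and the median over all was -0.02. Differences of 1.5-fold were higher in 81 and lower in 62 genes with siRNA 2, and higher in 31 and lower in 50 with siRNA 1. For EGFR the same difference was 0.21 and for ERBB2 0.19. Of the 412 words of 31 bases in the stretch 65 (15.8%) also occur in transcripts of other genes, at bases 294 to 418, and how the authors placed reads with several matches is not known.

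**Figure D3:**
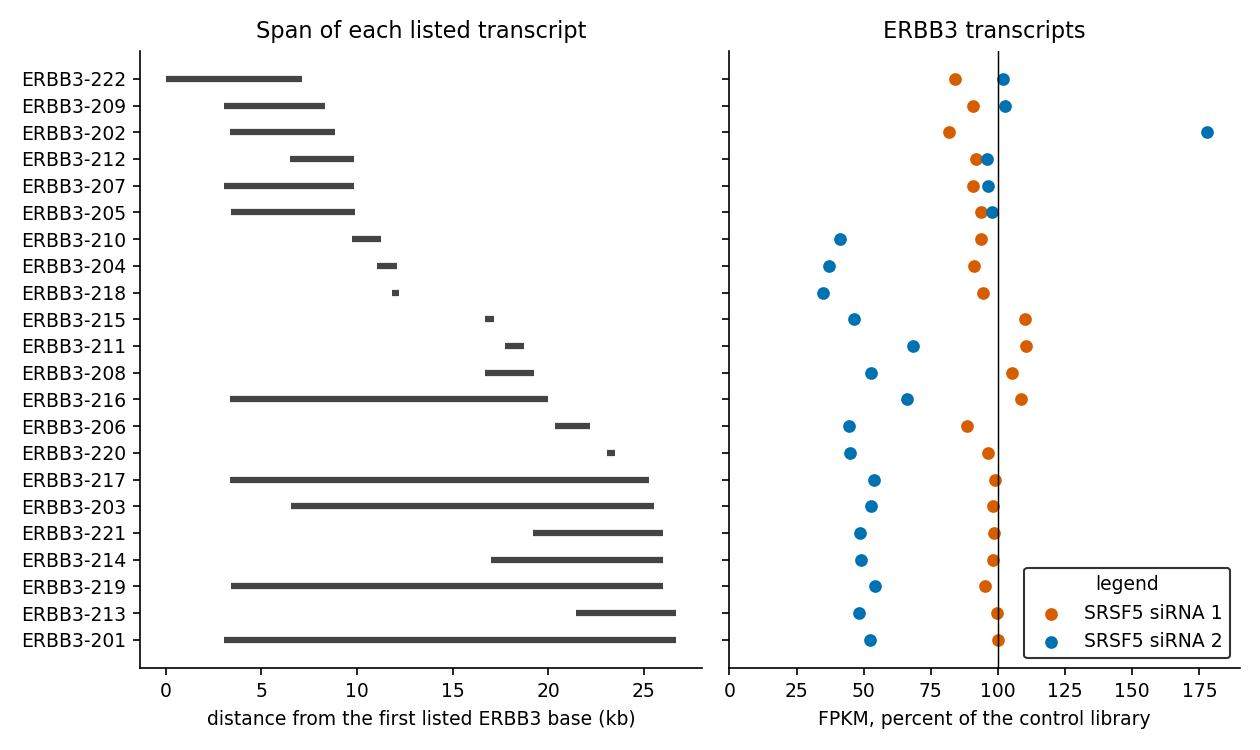
ERBB3 transcripts ordered by where they end. Left, the span of each listed transcript in kb from the first listed base of the gene. Right, its FPKM as a percentage of the control with siRNA 1 and siRNA 2. Transcripts ending within the first 10 kb lie near or above the control with siRNA 2, and the others lie at 34.8% to 68.2%.

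TGFA was the member farthest from the control with 1 FPKM added, and the only one past 1.5-fold on the same side in both siRNA libraries. With 0.1 FPKM added EPGN lay farther, at -0.59 with siRNA 1 and 1.47 with siRNA 2, against -0.81 and -1.11 for TGFA. TGFA encodes transforming growth factor alpha, an EGFR ligand that keratinocytes make and respond to. TGFA (ENSG00000163235.16, chromosome 2, 70447284 to 70554193, minus strand) summed to 11.01 FPKM with siRNA 1 and 8.94 with siRNA 2, against 19.4 in the control. The 2 siRNA libraries lay at 56.7% and 46.1% of the control, with log2 ratios of -0.76 (counting error 0.07) and -1.04 (0.08). The mean was -0.90 ± 0.19 (SD, n = 2), larger than the difference between the siRNAs, but limma gave an unadjusted p of 0.055 and an adjusted p of 1.00. Each of the 9 transcripts, which share reads, was lower. Against the control they took 52.0% to 63.3% for siRNA 1 and 42.0% to 55.3% for siRNA 2. TGFA-201 alone, of 4117 bases, lay on the same side at 3.12, 2.47 and 5.38 FPKM from 543, 419 and 988 read equivalents. The genes whose pair of ratios lay nearest to that of TGFA among all tested genes, over these 3 libraries, were IDH1 (-0.75 and -1.03), AC140479.6 (-0.74 and -1.06) and AK7 (-0.81 and -1.03).

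HBEGF, a ligand that keratinocytes make in response to wounding and that binds heparin, was low with siRNA 1 only. HBEGF (ENSG00000113070.8, chromosome 5, 140332843 to 140346603, minus strand) summed to 5.16 FPKM with siRNA 1 and 9.70 with siRNA 2, against 10.2 in the control. Its log2 ratio was -0.86 (counting error 0.12) with siRNA 1 and -0.07 (0.11) with siRNA 2. The siRNA 2 library could not be separated from the control by counting (95% interval -0.28 to 0.14), and it exceeded siRNA 1 by 0.80 (0.55 to 1.04). For its 3 transcripts siRNA 1 gave 50.1% to 51.6% of the control level and siRNA 2 gave 92.6% to 96.7%.

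The remaining ligands are neighbours on chromosome 4. EPGN, EREG and AREG lie in a row on the plus strand, 49.8 kb and 56.4 kb apart, and BTC follows 289.8 kb on, on the minus strand. The 3 plus-strand genes were higher with siRNA 2, and BTC was lower.

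AREG encodes amphiregulin, a main autocrine ligand of keratinocytes. It (ENSG00000109321.11, chromosome 4, 74445136 to 74455005) summed to 7.80 FPKM with siRNA 1 and 14.03 with siRNA 2, against 7.65 in the control. Only the siRNA 2 library stood apart, at a log2 ratio of 0.80 (counting error 0.15) against 0.03 (0.16) with siRNA 1. All 3 of its transcripts, which share reads, were higher with siRNA 2, at 177% to 188% of the control level. With siRNA 1 they were at 100.3% to 104%.

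EREG encodes epiregulin, which binds EGFR and ERBB4. It (ENSG00000124882.4, chromosome 4, 74365145 to 74388749) summed to 0.728 FPKM with siRNA 1 and 2.62 with siRNA 2, against 1.15 in the control. EREG-201, the coding transcript, held 63.0, 237 and 100.2 read equivalents in the same order. The order of the libraries was siRNA 2, control, siRNA 1, with log2 ratios of 0.75 (counting error 0.10) for siRNA 2 and -0.31 (0.11) for siRNA 1. Without the added 1 FPKM the sum with siRNA 2 was 228% of the control, and that with siRNA 1 was 63.4%.

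EPGN encodes epigen, and its highest transcript was the lowest among the ligands in the control. It (ENSG00000182585.9, chromosome 4, 74308473 to 74315307) summed to 0.757 FPKM with siRNA 1 and 3.47 with siRNA 2, against 1.19 in the control, in the same order as EREG. Its log2 ratios were -0.32 (counting error 0.42) and 1.03 (0.38). The siRNA 2 value depended on how the gene was summed: it was 0.33 on the highest transcript, 0.29 on the mean over transcripts and 0.49 on the longest coding one, all short of 1.5-fold, and 1.47 with 0.1 FPKM added in place of 1. The largest transcript, EPGN-202, held only 4.89, 28.1 and 6.06 read equivalents, so with siRNA 1 no difference from the control was detectable at this depth (95% interval -1.15 to 0.51). With siRNA 2 it exceeded siRNA 1 by 1.35 (0.66 to 2.04).

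BTC encodes betacellulin. It (ENSG00000174808.12, chromosome 4, 74744759 to 74794523) summed to 1.52 FPKM with siRNA 1 and 0.821 with siRNA 2, against 1.67 in the control. Counting could not separate siRNA 1 from the control (-0.09, interval -0.40 to 0.23), and siRNA 2 stood at -0.55 (-0.87 to -0.24), short of 1.5-fold on this scale and past it under median scaling (-0.60) or without mitochondrial transcripts (-0.62). Without the added 1 FPKM the siRNA 2 library was at 49.0% of the control, from 32.5 read equivalents in BTC-201 against 62.0.

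The 250 bases before the RefSeq start of these 4 genes (GRCh38.p14, gene strand) are shown because neighbouring genes differed in direction. Capitals mark TATAAA, the core of the TATA box, and TGACGTCA, the palindromic site bound by CREB and ATF proteins.
EPGN, chr4:74308220-74308469, plus strand: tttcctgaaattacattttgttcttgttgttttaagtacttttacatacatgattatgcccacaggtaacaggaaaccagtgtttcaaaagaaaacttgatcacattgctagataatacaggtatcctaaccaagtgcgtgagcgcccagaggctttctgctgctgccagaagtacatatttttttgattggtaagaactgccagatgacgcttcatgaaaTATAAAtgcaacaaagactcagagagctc
EREG, chr4:74364895-74365144, plus strand: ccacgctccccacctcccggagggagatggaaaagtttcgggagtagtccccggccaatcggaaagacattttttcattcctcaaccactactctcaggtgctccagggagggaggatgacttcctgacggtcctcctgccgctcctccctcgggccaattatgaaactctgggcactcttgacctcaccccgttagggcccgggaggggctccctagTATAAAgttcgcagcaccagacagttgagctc
AREG, chr4:74444886-74445135, plus strand: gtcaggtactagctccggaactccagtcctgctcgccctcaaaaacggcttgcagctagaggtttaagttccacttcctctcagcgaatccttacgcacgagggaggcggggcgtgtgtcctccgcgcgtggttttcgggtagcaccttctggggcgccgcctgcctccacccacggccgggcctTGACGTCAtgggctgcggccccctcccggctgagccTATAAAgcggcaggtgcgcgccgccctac
BTC, chr4:74794524-74794773, minus strand: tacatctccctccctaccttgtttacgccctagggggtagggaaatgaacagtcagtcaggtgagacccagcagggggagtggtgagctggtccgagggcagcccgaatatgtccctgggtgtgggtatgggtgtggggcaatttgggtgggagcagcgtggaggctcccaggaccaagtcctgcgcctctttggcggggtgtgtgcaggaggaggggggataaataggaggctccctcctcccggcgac

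TATAAA begins 29 bases before the start of EPGN, 32 before that of EREG and 29 before that of AREG. BTC has no exact match in its window, but its bases close to the start hold the similar GATAAA. The exact search therefore does not set BTC apart from its neighbours by a TATA-like stretch. Among the other members TATAAA lies 36 and 146 bases before the second of the RefSeq starts of EGFR. On both strands and anywhere in the window it occurs in 10.7% of 35116 RefSeq promoters, and on the gene strand within 40 to 20 bases of the start in 2.26%. TGACGTCA occurs in AREG alone among the members, 65 bases before its start, and in 1.65% of all promoters. The AP-1 motif TGANTCA, in 6.57% of promoters on either strand, was in none of these 4 windows but in those of ERBB2 and of the second EGFR start. GGAATG, the core bound by TEAD factors and in 11.9%, was in those of EREG and of the second EGFR start, on the opposite strand. GGGCGG, an SP1 type site in 42.6%, was in AREG on the opposite strand and in HBEGF, TGFA, EGFR and ERRFI1. The table matched 9 of the 10 members, all but ERBB3. A match is a description of letters and no evidence of binding.

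ERRFI1, the inhibitor, stood somewhat above the control with both siRNAs. ERRFI1 (ENSG00000116285.13, chromosome 1, 8004404 to 8026309, minus strand) summed to 11.8 FPKM with siRNA 1 and 10.1 with siRNA 2, against 8.02 in the control. The log2 ratios were 0.51 (counting error 0.10) and 0.30 (0.10), short of 1.5-fold. Each of the 5 transcripts, which share reads, was above the control with both siRNAs. Together with EGFR it was 1 of 2 members above the control in both siRNA libraries beyond counting error.

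**Figure D4:**
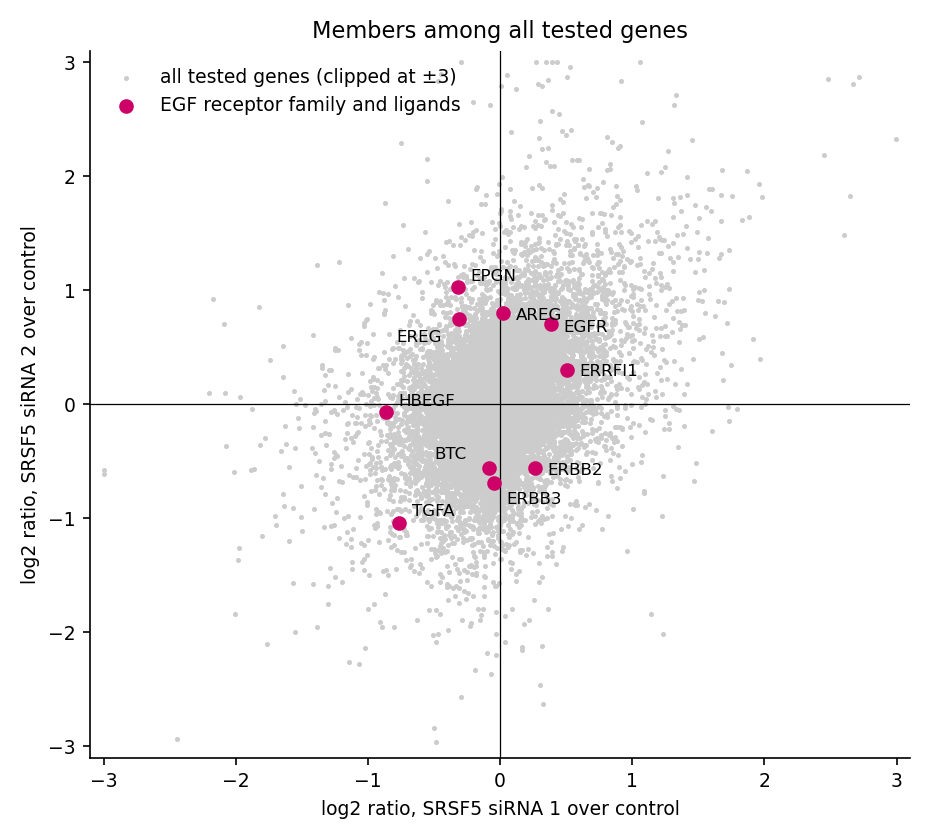
Log2 ratio with siRNA 2 (y axis) against that with siRNA 1 (x axis), both over the same control library, for the members (labelled) and all 13923 tested genes (grey). TGFA lies at -0.76 and -1.04, EGFR at 0.38 and 0.71, and EPGN and EREG lie below 0 with siRNA 1 and above 0 with siRNA 2.

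Other receptors and ligands of the family, a list of 6, were mostly low. The neuregulins NRG1, which binds ERBB3 and ERBB4, and NRG4, which binds ERBB4, passed the filter. NRG1 summed to 42.2 FPKM with siRNA 1 and 126 with siRNA 2, against 48.7 in the control. NRG4 went the other way, at 8.23 with siRNA 1 and 2.31 with siRNA 2, against 9.05. EGF (0.506, 0.110 and 0.349 FPKM), NRG2, NRG3 and ERBB4 (0.014, 0.016 and 0.009 FPKM) were below the filter.

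Genes of ligand shedding, 12 measured of 13, were lower with siRNA 2 in 5 cases and higher in 0, where 10.1% and 13.2% of all genes were. ADAM9, a membrane protease of many substrates, summed to 183 FPKM with siRNA 1 and 26.2 with siRNA 2, against 149 in the control. ADAM17, the main protease that releases TGFA, AREG, EREG, HBEGF and EPGN, was at 37.6 and 16.6 FPKM, against 37.0. With siRNA 2 their log2 ratios were -2.46 and -1.11. RHBDF2, an inactive rhomboid that carries ADAM17 to the cell surface and was named after its values were seen, stood at -1.15. The siRNA 1 library had 2 genes of this list higher and 1 lower, against 6.18% and 5.47% of all genes. The higher ones were ADAM19 (0.83) and RHBDF1 (0.75). The lower one was TIMP3 (-0.60), which encodes an inhibitor of such proteases. All were named after their values were seen.

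Of the receptor-level restraints, 14 measured of 15, 1 was higher and 1 lower in both siRNA libraries, so each count rests on a single gene, where 3.19% and 1.47% of all genes were. CBLB, a ubiquitin ligase of activated receptors, was at 23.3 FPKM with siRNA 1 and 43.7 with siRNA 2, against 13.1 in the control. LRIG3, a membrane protein of the LRIG family, was at 16.9 with each siRNA, against 29.2. PTPN2, a phosphatase, had log2 ratios of -0.19 and 0.56. LRIG1, a known restraint on EGFR, was below the filter at 0.009, 0.041 and 0.012 FPKM.

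Adaptors and exchange factors, 15 of 15 measured, had 2 genes higher in both and 0 lower, against 3.19% and 1.47% of all genes. GAB2, a docking protein for PI3 kinase, summed to 4.45 FPKM with siRNA 1 and 12.9 with siRNA 2, against 1.90 in the control. PIK3R1, the regulatory subunit of PI3 kinase, was at 15.4 and 16.0, against 8.0. GRB2, SHC1 and SOS1, which link receptors to RAS and were named after their values were seen, had ratios of -0.35 to 0.16 in both libraries. PIK3CB, a catalytic subunit, was at -0.51 and 0.41.

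In the RAS, RAF, MEK and ERK core, 13 of 13 measured, 0 genes were apart in both. RPS6KA3, an ERK-activated kinase, had log2 ratios of -0.81 with siRNA 1 and 0.15 with siRNA 2, and BRAF, the RAF kinase, of -0.25 and 0.59.

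Feedback inhibitors of ERK signalling had the widest median difference between the siRNAs of the 7 lists, 0.82 for siRNA 2 over siRNA 1. The list also holds NF1 and RASA1, more general restraints on RAS, whose differences were -0.13 and -0.003. Of 11 measured 7 were lower and 0 higher with siRNA 1, where 5.47% and 6.18% of all genes were, and 0 lower and 3 higher with siRNA 2, where 10.1% and 13.2% were. The medians were -0.68 and 0.32, against -0.02 and 0.05 over all genes. DUSP6, the phosphatase that inactivates ERK, summed to 9.51 FPKM with siRNA 1 and 42.4 with siRNA 2, against 18.6 in the control. DUSP4 was at 4.94 and 16.8, against 8.78. With siRNA 2 8 of the 11 were at least 1.5-fold higher than with siRNA 1, where 13.7% of all genes were.

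Transcripts that depend on ERK, 14 of 14 measured, had medians of -0.38 with siRNA 1 and -0.01 with siRNA 2. With siRNA 1 4 were lower and 0 higher, against 5.47% and 6.18% of all genes. With siRNA 2 1 was lower and 3 higher, against 10.1% and 13.2% of all genes, and these counts are too small to set apart from those shares. PHLDA1 was at 5.45 FPKM with siRNA 1 and 16.9 with siRNA 2, against 14.9 in the control, and EPHA4, an ephrin receptor, at 3.96 and 11.3, against 4.82. These were named for their wide difference between the siRNAs. Of the 14, 7 were at least 1.5-fold higher with siRNA 2 than with siRNA 1 and 0 lower. Over all genes 13.7% and 10.5% were. CCND1, IER2 and JUN of the same list, named after their values were seen, were lower with siRNA 2 than with siRNA 1. Their log2 differences were -0.57, -0.51 and -0.40, all short of 1.5-fold. In limma over all genes 0 genes of the 7 lists passed.

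**Figure D5:**
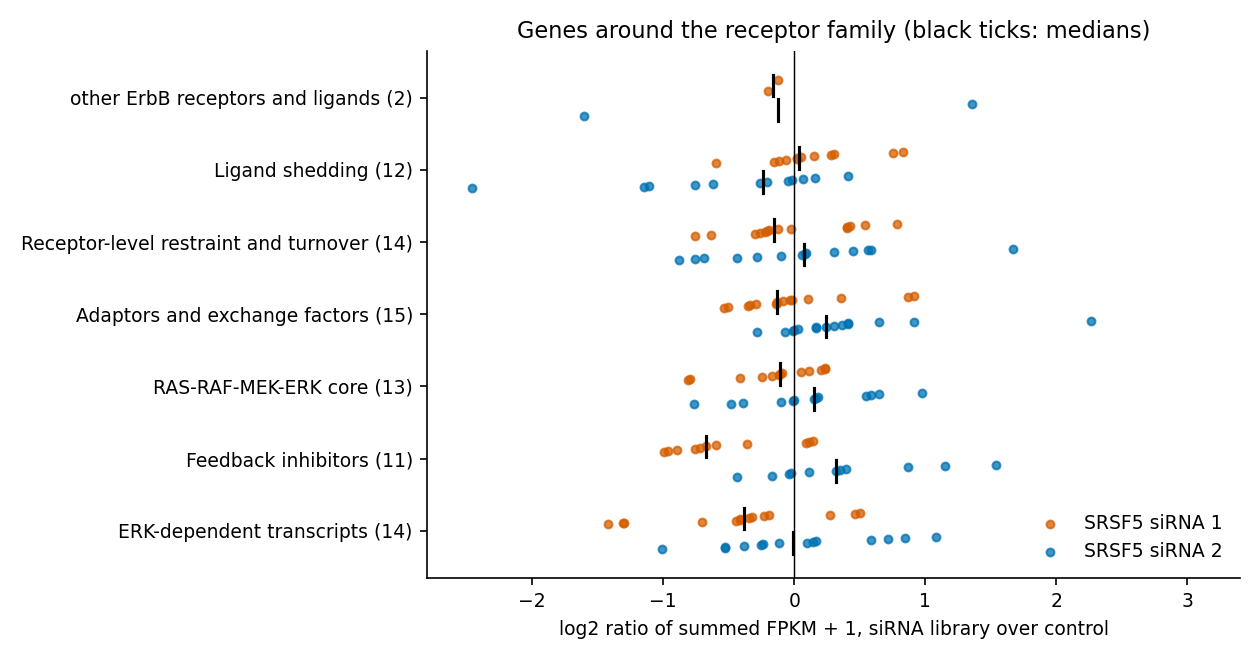
Log2 ratios over the control of the tested genes of 7 lists around the receptor family, siRNA 1 above siRNA 2 in each list, with the number of tested genes in brackets and medians as black ticks. The feedback inhibitors have medians of -0.68 with siRNA 1 and 0.32 with siRNA 2.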

How the data were processed

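RNA-seq of 3 HaCaT libraries was analysed. The authors deposited FPKM per Ensembl transcript, per the file headers, with exons, strand and length. Human (GRCh38, p12) and mouse (GRCm38, mm10) builds appear in the submitters' processing notes, with no role stated. No source used here gives the aligner or counter. Members, gene lists and tests were chosen with earlier results of these data known.

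Of 247012 transcripts, 20343 on alternate scaffolds or in duplicate were not used. In 100% of values, FPKM multiplied by length fell on whole steps (tolerance 0.05), read as overlapping bases. The counting used strand: single-exon transcripts within an exon of another gene exceeded it in 0 of 2886 library values when both lay on 1 strand, against 170 of 541 when they did not. Base counts added up over exons within 0.001 in 55 of 57 sets of transcripts where this can be checked.

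Genes were summed, log2(FPKM + 1) was taken, and genes with a mean of at least 1 were tested. limma 3.58.1 in R 4.3.3 (trend, Benjamini-Hochberg over all genes) compared 2 siRNA libraries with 1 control. With 1 residual degree of freedom, it takes the single control to vary as the siRNA libraries do. Its p-values therefore rest on the difference between the 2 siRNA libraries, pooled with that of all genes, and on no spread among controls. That difference holds the unlike siRNAs, their unlike SRSF5 levels and technical spread, which cannot be told apart. SRSF5 stood at 47.1% of the control with siRNA 1 and 19.8% with siRNA 2. No count model was run, since the files give no counts per gene. All 10 members and SRSF5 are named. From the lists, those past 1.5-fold in both siRNA libraries and up to 2 with the widest difference between the siRNAs are named. The 3 genes nearest to the member farthest from 0, with 1 FPKM added, are named too. Alternatives were another pseudocount, gene level, filter, scaling, fold or limma setting, and each siRNA library left out. Python 3.11.15, numpy 2.4.6, pandas 2.3.3, scipy 1.17.1 and matplotlib 3.10.9 were used. Promoters are RefSeq's, and the ERBB3 stretch is from GENCODE 29 on GRCh38.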

Additional observations from a re-analysis of the deposited data

How the results depend on the processing

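No paired analysis was possible because the control had 1 library, so the groups share fewer than 2 replicate numbers. TGFA was the 1 member at least 1.5-fold from the control in both siRNA libraries. The count was 0 with the mean over transcripts and 0 at a fold of 2, and 2 to 6 with 1 siRNA library left out. All genes so called were 649, or 992 and 1058 with a pseudocount of 0.1 and 0.01 FPKM, 287 with the mean over transcripts, 394 with the highest transcript, 241 with the longest coding transcript (added after seeing the data), 141 at a fold of 2 and 1623 to 3244 with 1 siRNA library left out. The genes of the 7 lists so called were 4, or 0 with the mean over transcripts, 1 with the highest transcript, 0 with the longest coding one, 0 at a fold of 2 and 21 to 26 with 1 siRNA library left out. Members past 1.5-fold with siRNA 1 were 2, or 4 with a pseudocount of 0.1 or 0.01 FPKM, 1 with the mean over transcripts and 0 at a fold of 2. With siRNA 2 they were 6, or 3 with the mean over transcripts, 2 at a fold of 2, 7 with either smaller pseudocount and 8 (4 higher, 4 lower) under median scaling or without mitochondrial transcripts. Between the siRNAs they were 6, or 3 with the mean over transcripts, 2 at a fold of 2 and 7 with either smaller pseudocount. The mean over transcripts is a smaller value beside the same pseudocount, which draws ratios to 0. Robust limma called 3 genes in place of 0, and 0 members. No member ratio past 1.5-fold changed sign under the 9 alternatives for its value (8 for EREG, BTC and EPGN, which a minimum of 5 FPKM removes). For most alternatives this was fixed in advance. Another pseudocount, the mean over transcripts and the filters keep a sign by construction. Median scaling and leaving out mitochondrial transcripts shift ratios too little to turn such a sign. Only the choice of a single transcript could have changed it. Median scaling subtracts the medians of all genes, -0.02 with siRNA 1 and 0.05 with siRNA 2. EPGN, EREG and BTC are limited by depth, and with a pseudocount of 0.1 FPKM the siRNA 2 ratios were 1.12 for EREG and -0.95 for BTC.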
